A study of Mus musculus with 9 samples.

Results

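Mitochondrial ribosomal proteins were followed in 3 kinds of mouse myeloid cells: normal granulocyte-macrophage progenitors (GMP), leukemic cells that resemble them (L-GMP) and cells obtained by growing L-GMP in culture. The members were all probe sets of the deposited signal table whose single annotated gene symbol begins with Mrpl or Mrps followed by a number, a choice that used no measured value. There were 127 such probe sets among 22690, and they stood for 74 of the 12394 genes with a probe set of their own. Of these, 110 probe sets were bright enough to be tested, and each of the 74 genes had at least 1 of them. The other 17 were dim, with highest signals between 36.8 and 174, and belonged to Mrps25, Mrpl35, Mrps2, Mrpl19 (2 probe sets), Mrpl3, Mrpl50, Mrpl33, Mrpl41, Mrpl9, Mrpl42, Mrpl11, Mrpl15, Mrps11, Mrpl21, Mrpl57 and Mrpl1.

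The 9 arrays fell into 3 groups of 3. GMP were sorted from bone marrow and are labelled as normal. L-GMP were sorted from leukemic marrow, and the title names the cause of the leukemia as MLL-AF9, which joins the histone methyltransferase MLL to AF9. The L-GMP-derived group was propagated in vitro. Its arrays carry a code in place of a group name and give L-GMP as their source, so they were placed here as the only arrays that the design text leaves for the cultured cells, which is a limit on each comparison with them. About 50000 sorted cells and about 50 ng of total RNA went into an array. Strain, age and disease stage were not given in the sources used here, nor was the route by which MLL-AF9 was introduced, and the labels do not say whether replicates are separate mice or cultures. The p-values can thus reflect technical spread alone.

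Mitochondria carry their own ribosome, which makes the few respiratory chain proteins that mitochondrial DNA encodes. Its RNAs come from mitochondrial DNA, but all of its proteins are encoded in the nucleus, made in the cytosol and imported. Mrpl genes encode proteins of the large subunit, which joins amino acids into a chain, and Mrps genes those of the small subunit, which reads the messenger RNA. Some of these proteins have counterparts in bacterial ribosomes and the rest are found only in mitochondria. The names do not always follow the subunit: Mrps18a and Mrps30 lie in the large subunit, and Mrps36 is now known as a component of the 2-oxoglutarate dehydrogenase complex of the citric acid cycle. Counted this way, the members were 49 large-subunit genes, 24 small-subunit genes and Mrps36. In blood cell precursors and in acute myeloid leukemia cells, mitochondrial translation is known as a process on which growth depends.

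The genes are scattered over 17 chromosomes, with at most 11 of them on one (chromosome 11). Their promoters are of the kind found at housekeeping genes, for which sites of the ETS factors, NRF1, YY1 and the E-box bound by Myc family proteins are known. The 250 bases before the RefSeq gene start (build GRCm38.p6) were available for 65 of the 74 genes and were searched on both strands for exact matches to 4 motifs. Mrpl46 and Mrps11 lie head to head on chromosome 7 and their windows overlap, so these are not separate promoters. Those of 5 genes are printed because their transcripts carry the main patterns described further on or, for Mrpl36, because the promoter holds 2 of the motifs. Mrps22, Mrpl47, Mrpl39 and Mrpl36 had lower signals in L-GMP, and Mrpl17 had higher signals in the cultured cells. Each sequence runs from 5′ to 3′ on the strand of its gene, and capitals mark the motif matches. They lie at chr9:98601680-98601929 (Mrps22, minus strand, an ETS match), chr3:32736756-32737005 (Mrpl47, minus strand, no match), chr7:105811088-105811337 (Mrpl17, minus strand, ETS), chr16:84735245-84735494 (Mrpl39, minus strand, NRF1) and chr13:73330759-73331008 (Mrpl36, plus strand, an E-box and YY1).
Mrps22: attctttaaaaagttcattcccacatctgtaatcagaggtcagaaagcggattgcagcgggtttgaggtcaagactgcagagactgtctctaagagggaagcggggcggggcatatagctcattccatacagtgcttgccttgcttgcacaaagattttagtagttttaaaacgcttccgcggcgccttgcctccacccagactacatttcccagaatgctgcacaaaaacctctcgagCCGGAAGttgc
Mrpl47: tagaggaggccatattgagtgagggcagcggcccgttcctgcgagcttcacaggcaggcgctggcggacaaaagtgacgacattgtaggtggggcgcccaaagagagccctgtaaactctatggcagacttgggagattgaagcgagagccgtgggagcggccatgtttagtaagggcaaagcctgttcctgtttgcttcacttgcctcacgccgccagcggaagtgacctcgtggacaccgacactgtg
Mrpl17: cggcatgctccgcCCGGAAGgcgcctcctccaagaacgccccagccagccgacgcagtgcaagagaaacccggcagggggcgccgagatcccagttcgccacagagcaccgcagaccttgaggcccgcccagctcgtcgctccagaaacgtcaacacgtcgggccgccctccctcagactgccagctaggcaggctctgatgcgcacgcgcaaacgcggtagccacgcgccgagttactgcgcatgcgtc
Mrpl39: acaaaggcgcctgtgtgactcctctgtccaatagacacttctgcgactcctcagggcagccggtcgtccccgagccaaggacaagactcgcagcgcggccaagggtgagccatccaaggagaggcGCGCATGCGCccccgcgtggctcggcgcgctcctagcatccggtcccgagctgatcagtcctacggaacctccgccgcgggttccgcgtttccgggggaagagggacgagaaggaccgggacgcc
Mrpl36: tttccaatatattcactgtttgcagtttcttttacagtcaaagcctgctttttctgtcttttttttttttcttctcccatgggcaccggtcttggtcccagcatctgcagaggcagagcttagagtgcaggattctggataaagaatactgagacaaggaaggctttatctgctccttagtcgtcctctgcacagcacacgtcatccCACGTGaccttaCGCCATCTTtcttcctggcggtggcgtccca

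The ETS core CCGGAAG was present in 15 of the 65 member promoters (23.1%) and in 9.13% of 17492 promoters of protein-coding genes of the same length. The NRF1 motif, a palindrome whose first 5 letters are GCGCA, was in 3 member promoters (4.62%) against 1.06% of all, and the YY1 motif AAGATGGCG in 2 (3.08%) against 0.697%. The E-box CACGTG, also a palindrome, was in 5 (7.69%) against 6.64%. The ETS match was found in 3 of the 20 promoters of genes whose leading probe set was lower in L-GMP than in GMP (15%) and in 12 of the other 45 (26.7%). These are matches of letters in a fixed window and do not show binding of a factor. None of the 4 motifs contains another, and the shares were not tested.

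Signals are the authors' linear intensities, and differences are given in log2 with the standard error of the fit. A difference was called at an adjusted p under 0.05 in a moderated linear model fitted with limma on all 9 arrays and 14578 probe sets, with Benjamini-Hochberg adjustment. Arrays of the same group correlated between 0.958 and 0.991 over all tested probe sets and arrays of different groups between 0.898 and 0.928. The lowest correlations within a group were those of L-GMP-derived replicate 1 with the other arrays of its group. For the member counts and the named members, changes without that array are given. Single genes outside the members were not examined without it. Some markers of other myeloid cell types differed among the groups. The summed signal of 5 macrophage markers was 668 to 685 in GMP, 3330 to 3910 in L-GMP and 744 to 1710 in the cultured cells, with Mrc1 at the floor in all groups and Marco in the cultured cells. Only 2 of them, Adgre1 and Cd68, were tested. Adgre1 made up most of the sum (mean 375, 3072 and 984 in the 3 groups). The summed signal of 5 mast cell, eosinophil and basophil markers was 1030 to 1280, 3050 to 4810 and 165 to 229, with Epx at the floor in L-GMP and Cpa3, Prg2 and Epx in the cultured cells. The 3 of these tested did not move together in L-GMP against GMP. Prg2 was called higher (mean 221 in GMP and 2670 in L-GMP), Mcpt8 was called lower (159 and 71.6) and Cpa3 was not called. The summed signal of 6 mature neutrophil markers was 8870 to 22300, 17700 to 35600 and 883 to 8400, with Mmp9 at the floor in all. Of the 5 tested, 0 were called in L-GMP against GMP (1 was higher at an unadjusted p under 0.05 in the limma fit). In culture 1 was called lower than in GMP and 3 lower than in L-GMP. Ltf was not called in any comparison. The sum of 9 GMP markers was 40300 to 41700, 29900 to 36200 and 24200 to 28800, with Cd34 at the floor in the cultured cells. These markers did not move together. In L-GMP against GMP 3 were called lower and 1, Fcgr3, higher. In culture 4 were lower and 0 higher than in GMP. Against L-GMP 5 were lower in culture and 2, Cebpa and Ctsg, higher. Elane and Prtn3 were not called in any comparison. The ratio of the 3′ to the middle beta-actin probe set, which rises as RNA or its copying shortens, was 4.23 ± 0.54 (SD, n = 3) in GMP, 2.26 ± 0.288 in L-GMP and 3.01 ± 0.167 in the cultured cells. The group means had the same order in the 3′ to 5′ ratio of beta-actin (7.37 ± 0.647, 5.17 ± 0.352 and 7.1 ± 0.144). There the GMP and cultured arrays overlapped. The order was again the same in the 3′ to middle ratio of Gapdh (2.12 ± 0.101, 1.85 ± 0.05 and 1.86 ± 0.137). There the L-GMP and cultured arrays overlapped. Only the 3′ to 5′ ratio of Gapdh ordered the groups otherwise, at 7.86 ± 0.853, 8.09 ± 3.04 and 7.21 ± 1.78. The part of other cell types and of RNA quality in the results on the members was not tested.

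The first comparison, L-GMP against GMP, asks how the leukemic progenitors differ from their normal counterpart. Of the 110 member probe sets, 30 were lower in L-GMP (27.3%) and 3 were higher (2.73%), while 77 were not called. Among all 14578 tested probe sets 12.6% were lower and 13.4% higher. The median member difference was -0.16 on the log2 scale with quartiles of -0.41 and 0.011, beside a median of -0.0032 over all probe sets. The 3 L-GMP arrays lay wholly below the 3 GMP arrays in 49 member probe sets and wholly above them in 7, where the shares over all probe sets were 23.4% and 22.9%. The called differences were moderate, and only 2 of them reached 2-fold. From a pool of cells, fewer cells of a type and less RNA per cell cannot be told apart. The count of lower probe sets was 17 without GMP replicate 2, without GMP replicate 3 or without L-GMP replicate 3, it was 18 without GMP replicate 1, and it was 40 without L-GMP-derived replicate 1. In all 9 such fits 14 of the 30 were called.

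**Figure D1:**
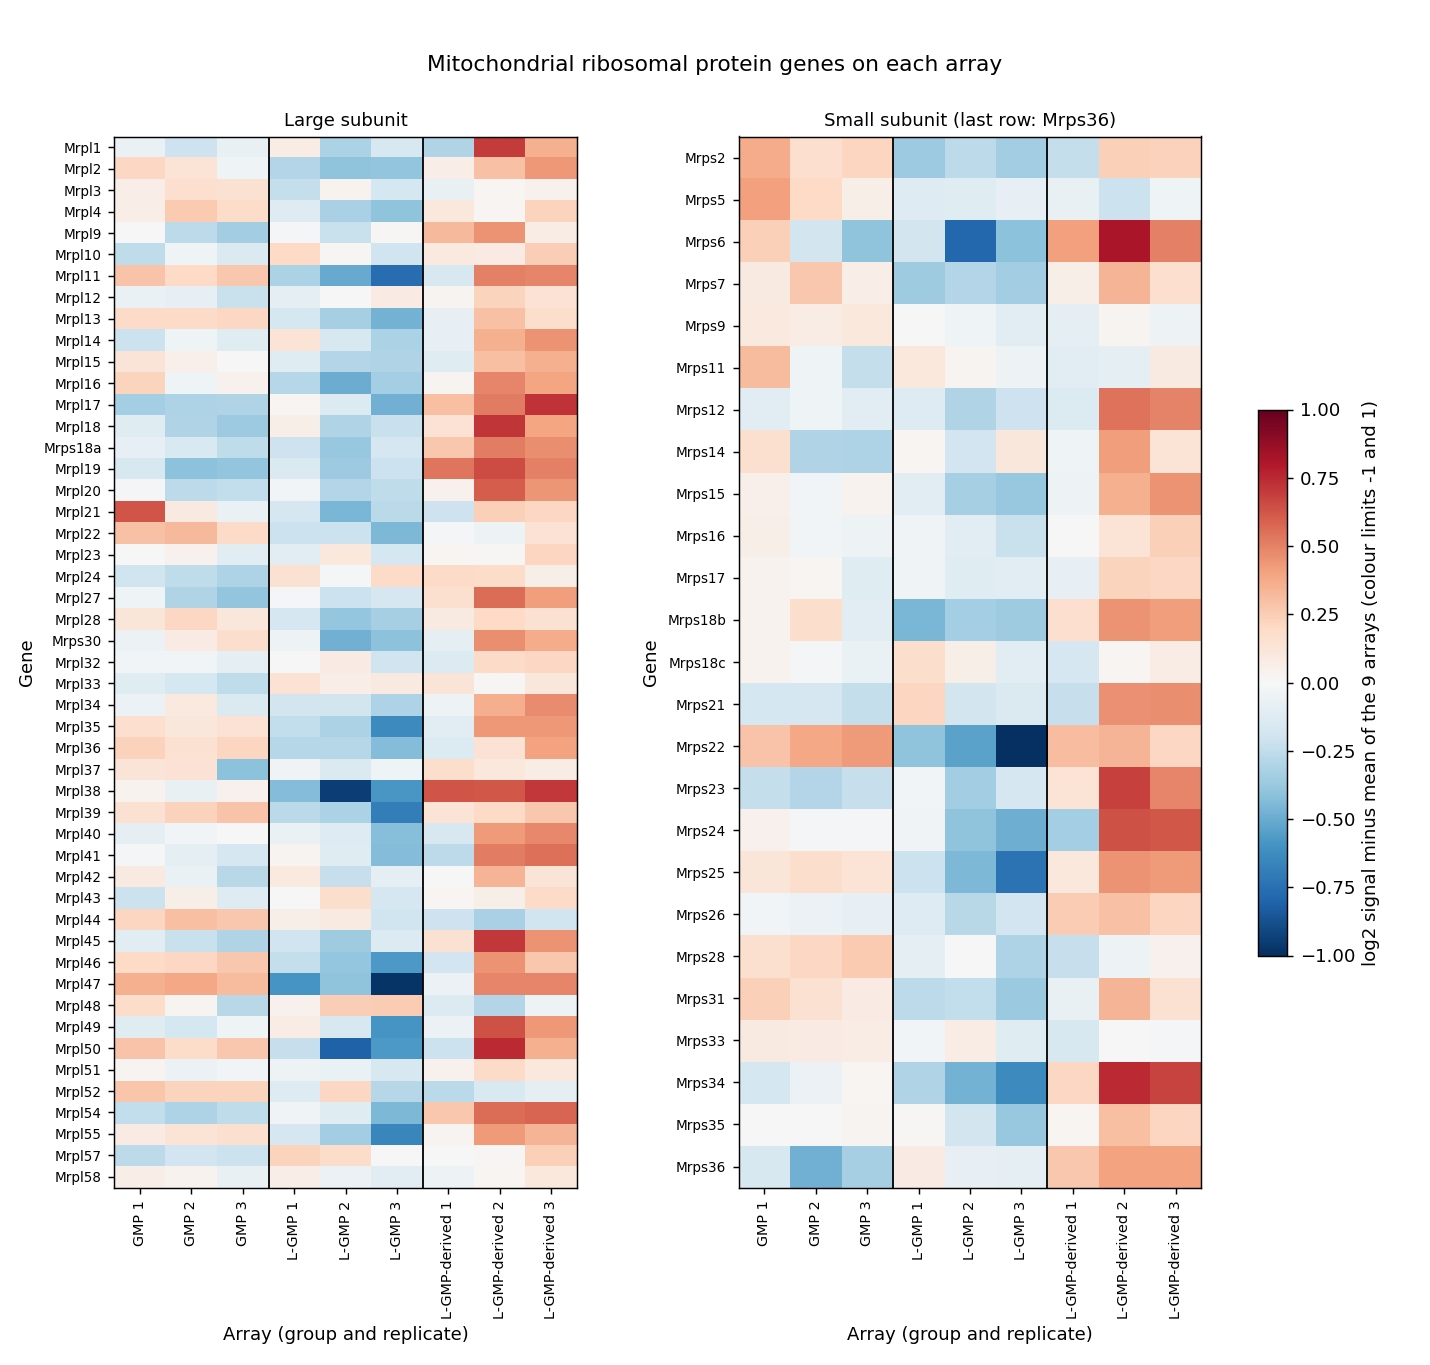
Centred log2 signal (log2 signal minus the mean of the 9 arrays) of the leading probe set of each of the 74 genes, one row per gene and one column per array, large-subunit genes in the left panel and small-subunit genes with Mrps36 as the last row in the right panel. The colour scale ends at -1 and 1, the L-GMP columns are low for most genes, and the columns of L-GMP-derived replicates 2 and 3 are high for most.

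Mrps22, a small-subunit protein with no bacterial counterpart whose human gene is mutated in a mitochondrial disease, had the largest fall. Its signals (probe set 1416595_at) were 894, 961 and 989 in GMP, 557, 507 and 364 in L-GMP, and 912, 929 and 848 in the cultured cells. All L-GMP arrays lay below all others, and the GMP and cultured arrays overlapped. The difference between L-GMP and GMP was -1.02 ± 0.15, a 2.02-fold lower level with an adjusted p of 0.000832.

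Mrpl47, the counterpart of the bacterial protein L29 near the exit of the peptide tunnel, fell to a like degree. Signals of 1429054_at were 1763, 1802 and 1716 in GMP and 916, 1041 and 699 in L-GMP, a difference of -1.01 ± 0.17 (adjusted p = 0.00177). In the cultured cells they were 1320.5, 1931 and 1929, so that replicate 1 was lower than the other two and below the GMP arrays. Again no L-GMP array reached the level of any array of the other groups.

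Mrpl39, a large-subunit protein specific to mitochondria, had signals of 3288, 3458 and 3600.2 in GMP, 2456, 2374 and 1826 in L-GMP and 3249, 3386 and 3569 in the cultured cells (1448909_a_at). The L-GMP arrays were the 3 lowest, with a difference from GMP of -0.65 ± 0.10 (adjusted p = 0.00123). Its second probe set differed by -0.26 and was not called (adjusted p = 0.142). Mrpl38, which lies in the central protuberance of the large subunit, gave the same difference of -0.65 ± 0.14 (adjusted p = 0.00576) at lower signals. For 1447961_s_at these were 249, 230.0 and 249.8 in GMP, 179.6, 126 and 162 in L-GMP, and 376, 373 and 397 in the cultured cells, and the 3 groups did not overlap. This probe set may bind related transcripts, and another one of the gene, 1430610_at, was not called in L-GMP against GMP.

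Mrpl11 belongs to the stalk base, where translation factors dock. Its leading probe set, 1437131_x_at, was called, at 1423, 1344 and 1408 in GMP and 936, 823 and 689 in L-GMP (-0.78 ± 0.18, adjusted p = 0.00896). A second one, 1437839_x_at, was also called (-0.74 ± 0.16, adjusted p = 0.0068). Cultured replicate 1 was at 1045 on the first of these, between the L-GMP and GMP arrays, and replicates 2 and 3 were at 1652 and 1639.6, above GMP. Both called probe sets carry the suffix of probes that may bind related transcripts, so their agreement is not independent evidence. A further tested probe set of Mrpl11 was not called. Mrpl50, another large-subunit protein specific to mitochondria, differed by -0.78 ± 0.23 as well (adjusted p = 0.0276), with signals of 182, 122 and 143 against 259, 241 and 256. This call was lost when L-GMP replicate 2 or 3 or any 1 of the GMP arrays was left out, with adjusted p-values from 0.0648 (without GMP replicate 2) to 0.098 (without L-GMP replicate 2).

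Mrpl28, Mrpl3 and Mrps7 have bacterial counterparts, and in bacteria that of the last starts the assembly of the small-subunit head. Mrpl28 (1456313_x_at) was at 2472, 2627 and 2461 in GMP and at 2024, 1744 and 1806 in L-GMP, a difference of -0.44 ± 0.08 (adjusted p = 0.00218). Mrps7 (1453725_a_at) was at 287, 324 and 282 in GMP and at 209.9, 219 and 211 in L-GMP, a difference of -0.48 ± 0.12 (adjusted p = 0.012), which was not called without GMP replicate 2 (adjusted p = 0.0577). The groups did not overlap for either. A further probe set of Mrpl28 was also called lower in L-GMP, while another was not called. The 2 probe sets of Mrpl3 differed in size. The bright one, 1422464_at, averaged 2623 in GMP and 2207 in L-GMP (-0.25 ± 0.08, adjusted p = 0.0492), while the dim one, 1431006_at, was at 124, 133 and 153 against 79.6, 67.6 and 78.2 (-0.86 ± 0.17, adjusted p = 0.00462). With the floor at the 40th percentile the dim one differed by -0.29 and was not called (adjusted p = 0.188). The call of the bright probe set did not hold without 7 of the 9 arrays left out in turn, with adjusted p-values from 0.0603 (without L-GMP-derived replicate 2) to 0.154 (without L-GMP replicate 1). It held only without L-GMP replicate 2 or L-GMP-derived replicate 1. Mrpl36, a very small protein of the large subunit with a bacterial counterpart, was at 1420.4, 1344 and 1401 in GMP, 993, 991 and 896 in L-GMP and 1099, 1338 and 1601 in the cultured cells. The L-GMP arrays were again the 3 lowest, at -0.53 ± 0.13 from GMP (adjusted p = 0.0135), a call that was lost without GMP replicate 3 (adjusted p = 0.0524).

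Mrpl24, Mrpl33 and Mrpl57 were the 3 members called higher in L-GMP. Mrpl33, a small protein of the large subunit with a bacterial counterpart, was at 4950.2, 4780.1 and 4519 in GMP, 5979, 5642 and 5756 in L-GMP and 5905, 5446 and 5836 in the cultured cells. Both leukemic groups lay above GMP and overlapped each other, with differences from GMP of 0.29 ± 0.05 (adjusted p = 0.00199) and 0.27 (adjusted p = 0.00317). Mrpl24 rose by 0.36 ± 0.09 in L-GMP (1192 ± 42.1 to 1534 ± 113, SD, n = 3, adjusted p = 0.0155) and was at 1575 ± 79.1 in the cultured cells. Its call in L-GMP did not hold when L-GMP replicate 3 (adjusted p = 0.0559), GMP replicate 2 (0.0544) or GMP replicate 3 (0.0678) was left out. Mrpl57, a large-subunit protein found only in mitochondria, averaged 3939 in GMP, 5064 in L-GMP and 4879.7 in the cultured cells (0.36 ± 0.08 in L-GMP, adjusted p = 0.00578).

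By role, with the leading probe set standing for a gene, 17 of 49 large-subunit genes were lower in L-GMP and 3 higher, with a median difference of -0.09. Of 24 small-subunit genes 7 were lower and 0 higher (also 0 at an unadjusted p under 0.05 in the limma fit), with a median of -0.24. Over all 8965 tested genes 12.8% were lower and 13.1% higher. In the large subunit 12 of 29 genes with a bacterial counterpart and 5 of 19 without one were lower, and in the small subunit these counts were 3 of 15 and 3 of 8. These classes do not cover every gene of either subunit, and they leave out a small-subunit gene that was called lower. Whether the subunits differ was not tested. The S18 family shows the spread among close relatives: Mrps18b fell from 1744 to 1302 (-0.42 ± 0.11, adjusted p = 0.0144), Mrps18a was at 247 and 232 (adjusted p = 0.628) and Mrps18c at 2589.8 and 2699 (adjusted p = 0.701). The call for Mrps18b was lost without GMP replicate 2 (adjusted p = 0.0694). Mrpl12, the flexible stalk protein that recruits translation factors, was at 1145, 1129 and 1027 in GMP and 1116, 1193 and 1264 in L-GMP (adjusted p = 0.455). Mrps12, of the decoding centre, averaged 928 and 851 (adjusted p = 0.627), Mrpl40 1035 and 927 (adjusted p = 0.516) and Mrps30 428 and 329.9 (adjusted p = 0.131). Without L-GMP-derived replicate 1 the last of these was called (adjusted p = 0.0478).

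**Figure D2:**
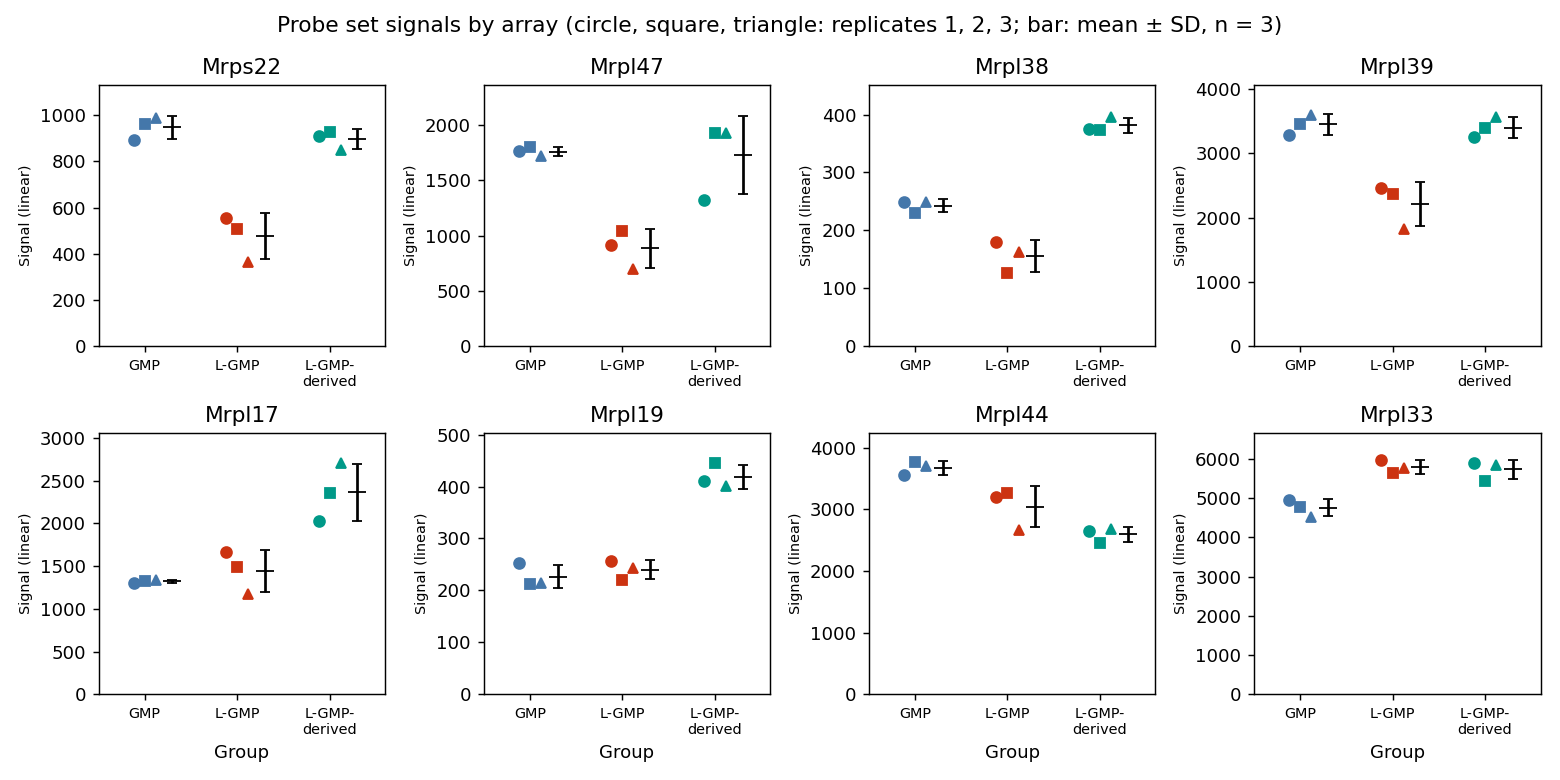
Linear signal of the leading probe sets of 8 members on each array (circle, square and triangle for replicates 1, 2 and 3), with the mean ± SD of each group of 3 beside the points. Mrps22, Mrpl47 and Mrpl39 are low in L-GMP alone, Mrpl38 differs among all groups, Mrpl17 and Mrpl19 are high in the cultured cells, Mrpl44 is lowest there, and Mrpl33 is higher in both leukemic groups than in GMP.

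The second comparison set the cultured L-GMP-derived cells against the same GMP arrays, so it shares its controls with the first. Of the 110 member probe sets 27 were higher in the cultured cells (24.5%) and 4 lower (3.64%), against 14.0% and 10.4% of all probe sets. The median member difference was 0.18, with quartiles of -0.041 and 0.42, and that of all probe sets 0.010. The cultured arrays lay wholly above GMP in 35 member probe sets and wholly below in 12, where all probe sets gave 22.4% and 18.5%. Without L-GMP-derived replicate 1 the count of higher members was 51, and in all 9 fits with 1 array left out 16 of the 27 were called.

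Mrpl17 and Mrpl19 are large-subunit proteins with bacterial counterparts. Mrpl19 (1421914_s_at) was at 252, 212 and 215 in GMP, 256, 219.8 and 243 in L-GMP and 410.1, 445 and 402 in the cultured cells, which lay above all other arrays. It rose over GMP by 0.89 ± 0.12 (1.85-fold, adjusted p = 0.000423), while L-GMP and GMP overlapped (adjusted p = 0.662). Mrpl17 (1450866_a_at) was at 1299, 1325 and 1335, then 1667, 1490.4 and 1176, then 2027, 2353 and 2702 in the 3 groups in the same order. The rise over GMP was 0.83 ± 0.14 (adjusted p = 0.00177), again with no overlap of the cultured arrays with any other. Its second probe set differed by -0.16 (adjusted p = 0.531). When both were averaged the difference was 0.34, and it was not called (adjusted p = 0.101).

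Mrpl54, specific to mitochondria, rose from 565 to 947 (575, 551 and 570.3 against 822, 1004 and 1016, 0.74 ± 0.14, adjusted p = 0.0034). One probe set of Mrpl15, 1430798_x_at, was at 162 in GMP, 163 in L-GMP and 301 in the cultured cells (0.89 ± 0.15 over GMP, adjusted p = 0.00171). The leading probe set of Mrpl15 was not called over GMP. Its centred log2 signals were 0.128, 0.0477 and 0.00763 in GMP and -0.122, 0.297 and 0.352 in the cultured cells. Another probe set of the gene was called higher, a call lost without GMP replicate 1 or 3 or L-GMP-derived replicate 2 or 3 (adjusted p up to 0.0869). Mrps23, a small-subunit protein without a bacterial counterpart, had the largest ratio in a dim probe set, 1421874_a_at, at 57.8 in GMP and 146 in the cultured cells. It was at least 2.27-fold higher (adjusted p = 0.00141), since 2 of the GMP arrays were set to the floor. With the floor at the 40th percentile the adjusted p was 0.0702. The brighter probe set of the gene went from 443 to 721 (0.69 ± 0.15, adjusted p = 0.00761). The leading probe set of Mrpl38, low in L-GMP, was above GMP in culture by 0.65 ± 0.14 (adjusted p = 0.00644).

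Mrps6, a small-subunit protein with a bacterial counterpart, and Mrpl49, of the large subunit, were dimmer. Mrps6 was at 127, 94.7 and 81.5 in GMP and 143, 189 and 152 in the cultured cells (0.69 ± 0.21, adjusted p = 0.0374). Mrpl49 (1423219_a_at) averaged 137 and 231 (0.73, adjusted p = 0.0227), and the brighter probe set of the gene, at 429 and 598, was not called (0.45, adjusted p = 0.134). Both calls were lost without either GMP replicate 2 or 3 or L-GMP-derived replicate 2 or 3, with adjusted p-values up to 0.14 for Mrps6 (without GMP replicate 3) and 0.0872 for Mrpl49 (without L-GMP-derived replicate 3). Mrps36, which is not a subunit of the mitochondrial ribosome, was at 289.6, 232 and 257 in GMP, 344, 306 and 302 in L-GMP and 392, 428 and 429 in the cultured cells, and it rose by 0.69 ± 0.12 in the last (adjusted p = 0.00231).

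The 4 probe sets called lower in the cultured cells belonged to Mrpl44, Mrpl52 and Mrps14. Mrpl44, which has the fold of the RNA-cutting enzyme RNase III, was at 3549, 3771 and 3693 in GMP, 3197, 3266 and 2668 in L-GMP and 2652, 2452 and 2673 in the cultured cells (1452144_a_at). It lay below GMP in both leukemic groups, by -0.28 ± 0.08 (adjusted p = 0.0319) and -0.50 ± 0.08 (adjusted p = 0.00157), and 1 cultured array overlapped L-GMP. The call in L-GMP was lost without L-GMP replicate 3 or any 1 of the GMP arrays, up to an adjusted p of 0.109, while that in the cultured cells held on leaving out any array. The second probe set, 1437391_x_at, also fell in the cultured cells (-0.37, adjusted p = 0.00451), but another, dim one averaged 147 in GMP and 210.0 in culture (0.51, adjusted p = 0.0518). The call of Mrpl52 (2544 to 1912, -0.41 ± 0.12, adjusted p = 0.0244) was lost without any 1 GMP array or L-GMP-derived replicate 2, with adjusted p-values from 0.0528 (without L-GMP-derived replicate 2) to 0.0754 (without GMP replicate 1). That of Mrps14 (1420488_at, 1564 to 1131, -0.49 ± 0.16, adjusted p = 0.0443) was lost without any of 6 arrays, up to an adjusted p of 0.133 without GMP replicate 3, and its other probe set averaged 1288 and 1604.8 and was not called. No gene had probe sets called in opposite directions in any comparison.

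By role, 13 of 49 large-subunit genes were higher in the cultured cells than in GMP and 2 lower (median 0.18), and of 24 small-subunit genes 4 were higher and 0 lower (median 0.15), 2 of the latter being lower at an unadjusted p under 0.05 in the limma fit. Over all tested genes 13.4% were higher and 10.7% lower. Mrps18a rose from 247 to 369 (261, 249 and 231 against 333, 393 and 380.2, 0.58 ± 0.12, adjusted p = 0.00541). Mrps18b was at 1744 and 2165 (0.31, adjusted p = 0.0547) and Mrps18c at 2589.8 and 2582 (adjusted p = 0.965). Mrpl12 averaged 1100.4 and 1312 (adjusted p = 0.0947), Mrpl40 1035 and 1288 (adjusted p = 0.248) and Mrps12 928 and 1239.5 (adjusted p = 0.12). On Mrps12 the cultured arrays were at 894, 1435 and 1389, replicate 1 being at the GMP level. Without that array Mrpl12, Mrpl40, Mrps12 and Mrps18b were called, with adjusted p-values of 0.0393, 0.011, 0.00115 and 0.00991. On the leading probe sets given above, Mrps22, Mrpl47, Mrpl39, Mrpl28 and Mrps7, all lower in L-GMP, had differences from GMP of -0.08, -0.05, -0.02, 0.00 and 0.05 in the cultured cells, and none of these was called (adjusted p of 0.749, 0.867, 0.913, 1 and 0.809). Another probe set of Mrpl28, not called in L-GMP against GMP, was called higher in the cultured cells than in GMP. Its difference was between 0.406 and 0.529 with 1 array left out. That call was lost without GMP replicate 2 or 3, up to an adjusted p of 0.0562.

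The third comparison asked how the cultured cells differ from the L-GMP they came from, and it uses the arrays of both comparisons above. Of the 110 member probe sets 59 were higher in the cultured cells (53.6%) and 1 was lower (0.909%), where all probe sets gave 16.4% and 13.5%. The median member difference was 0.44 with quartiles of 0.15 and 0.63, and the median of all probe sets was -0.0013. The cultured arrays lay wholly above the L-GMP arrays in 62 member probe sets and wholly below in 2, against 20.8% and 19.5% of all. At least 2-fold differences were called for 7 probe sets. The higher count ranged from 38 (without L-GMP replicate 3 or L-GMP-derived replicate 2) to 74 (without L-GMP-derived replicate 1), and 36 of the 59 were called in all 9 fits with 1 array left out.

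Mrpl38 had the largest difference, 1.31 ± 0.14 (156 ± 27.3 to 382 ± 12.8, SD, n = 3, adjusted p = 7.5e-05), and its second probe set, 1430610_at, gave 1.03 (adjusted p = 0.000772). The dim probe set of Mrpl3 went from 75.1 to 169 (1.15 ± 0.17, adjusted p = 0.00074), while the bright one averaged 2207 and 2396 and was not called (adjusted p = 0.314). The dimmer probe set of Mrpl49 rose from 105 to 231 (1.12 ± 0.20, adjusted p = 0.00185), while the brighter one averaged 403 and 598 (0.57 ± 0.20) and was not called (adjusted p = 0.0584). Mrps6 was at least 2.05-fold higher (adjusted p = 0.00424), with 1 L-GMP array at the floor. Mrps34, a small-subunit protein whose human gene is mutated in a form of Leigh syndrome, was at 655, 579 and 518 in L-GMP and 928, 1351 and 1286 in the cultured cells (1.01 ± 0.16, adjusted p = 0.000861). Its GMP signals of 712, 774 and 818 lay between those of the other groups and overlapped neither, with an adjusted p of 0.089 for L-GMP and 0.0168 for the cultured cells against GMP. The latter call was lost without GMP replicate 1 or 2 or L-GMP-derived replicate 2 or 3, up to an adjusted p of 0.0664. Mrpl47 and Mrps22 differed by 0.96 ± 0.17 (adjusted p = 0.00207) and 0.94 ± 0.15 (adjusted p = 0.00118).

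By role, 27 of 49 large-subunit genes were higher in the cultured cells (median 0.44) and 12 of 24 small-subunit genes (median 0.42), against 16.6% of all genes, of which 14.1% were lower. No leading probe set of the 74 genes was lower in the limma fit, and 2 were lower at an unadjusted p under 0.05. The single lower call was a second probe set of Mrpl52, 1455366_at, at 644, 799 and 934 in L-GMP and 591, 203 and 411 in the cultured cells (-1.09 ± 0.32, adjusted p = 0.0259). It was lost without L-GMP replicate 2 (adjusted p = 0.0732) or 3 (0.0879). Mrps18b rose by 0.73 ± 0.11 (1302 to 2165, adjusted p = 0.000554) and Mrps18a by 0.67 (232 to 369, adjusted p = 0.00182), but Mrps18c averaged 2699 and 2582 (adjusted p = 0.649). Mrpl12 at 1191 and 1312 (adjusted p = 0.34) and Mrpl40 at 927 and 1288 (adjusted p = 0.0665) were not called, and without L-GMP-derived replicate 1 Mrpl40 was (adjusted p = 0.00172). Mrps12 (0.51 ± 0.17, adjusted p = 0.0394) and Mrps30 (0.56 ± 0.17, adjusted p = 0.0302) were called, but the first was lost on leaving out any array other than L-GMP-derived replicate 1, up to an adjusted p of 0.143 (without L-GMP-derived replicate 3). The second was lost without L-GMP replicate 2 or 3 or L-GMP-derived replicate 2 or 3, up to an adjusted p of 0.109 (without L-GMP replicate 2).

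**Figure D3:**
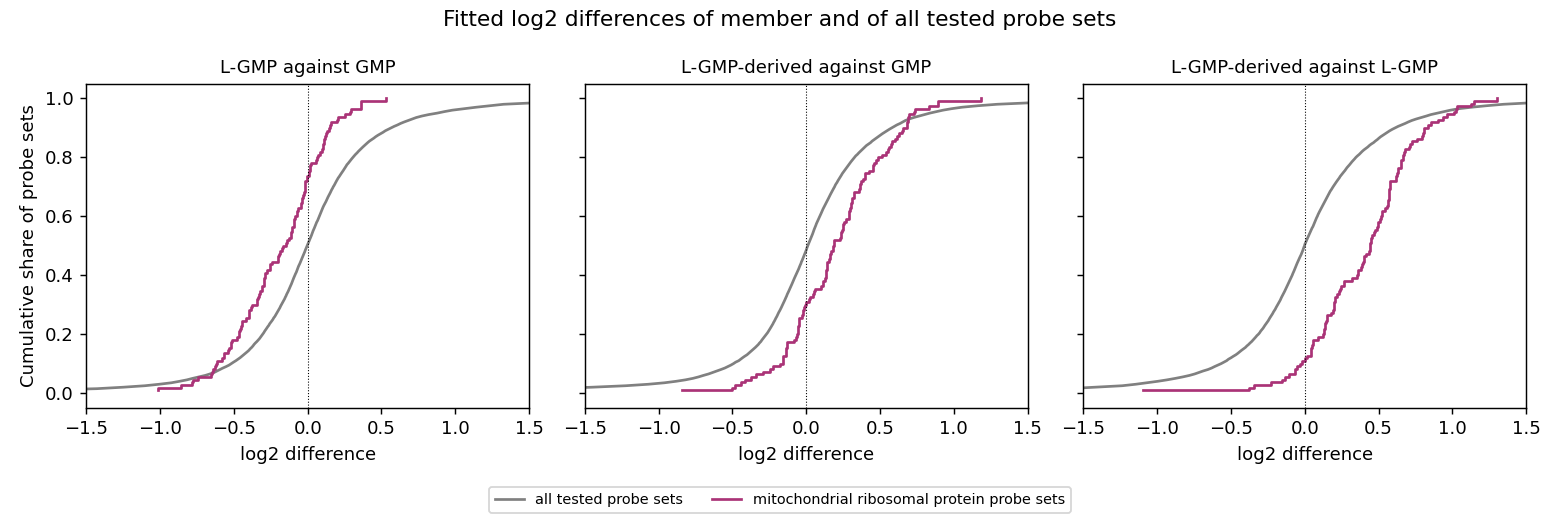
Cumulative share of probe sets by fitted log2 difference in the 3 comparisons, for the 110 member probe sets and for all 14578 tested, with the horizontal axis cut at -1.5 and 1.5, beyond which only probe sets of the larger collection lie. The member curve lies to the left in L-GMP against GMP (median -0.16) and to the right in the comparisons of the cultured cells (medians 0.18 and 0.44).

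The members differed between arrays of a group as well. The median over the 74 genes of the centred log2 signal was 0.046, -0.0097 and -0.057 on the GMP arrays and -0.094, -0.23 and -0.28 on the L-GMP arrays. On the cultured arrays it was -0.0095, 0.34 and 0.26, so that replicate 1 of that group lay within the GMP range and below the other two of its own. All L-GMP arrays were below all arrays of the other groups. The median over all 8965 tested genes stayed between -0.020 and 0.038 on every array.

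**Figure D4:**
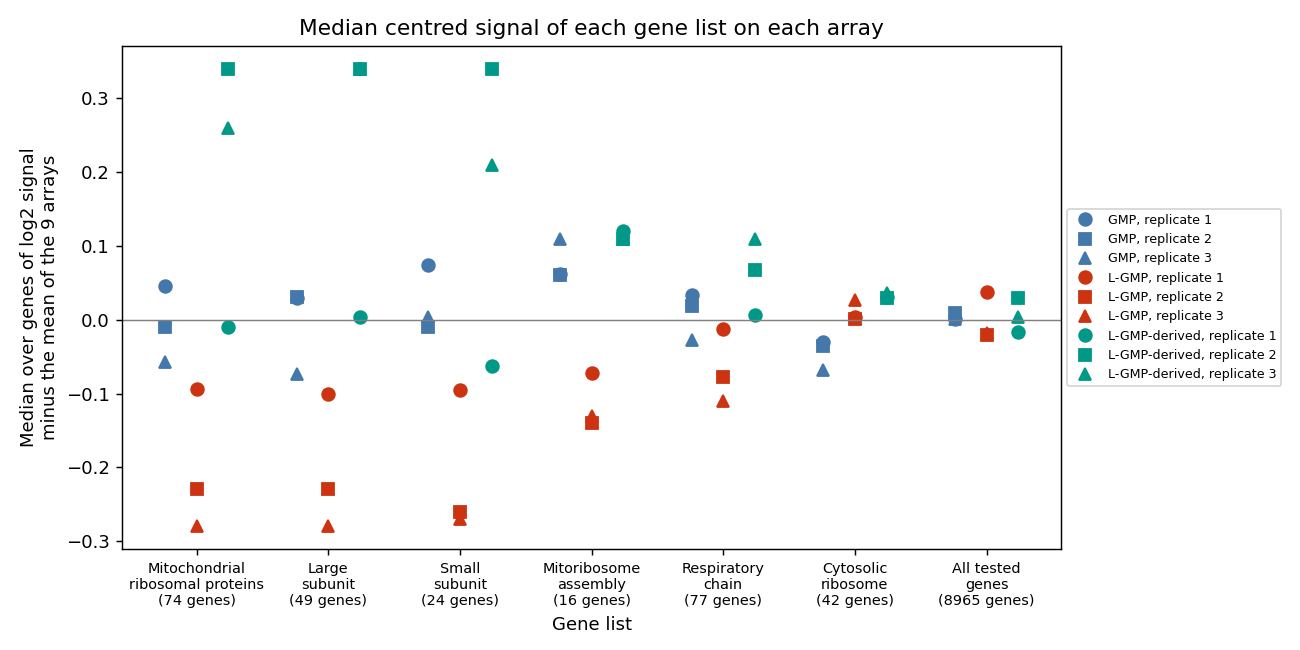
Median over the genes of a list of the centred log2 signal, one point per array (circle, square and triangle for replicates 1, 2 and 3). The mitochondrial ribosomal proteins run from -0.28 on an L-GMP array to 0.34 on a cultured one, whereas the cytosolic ribosomal proteins stay between -0.068 and 0.036.

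Of 23 genes with several tested probe sets, all of them were called in 1 gene, some in 8 and none in 14 for L-GMP against GMP. These counts were 2, 10 and 11 for the cultured cells against GMP and 7, 11 and 5 for the cultured cells against L-GMP. Probe sets of a gene differ in brightness and in the part of the transcript they read, and levels were therefore not compared between them.

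Proteins of the same ribosome that carry other names were few on the array. Of 4 tested, 2 were lower in L-GMP and 0 higher (also 0 at an unadjusted p under 0.05), and 3 were higher in the cultured cells than in L-GMP. Of all tested genes 12.8% were lower in L-GMP than in GMP and 16.6% were higher in culture than in L-GMP. Gadd45gip1, a large-subunit protein at the tunnel exit, averaged 745 in GMP, 416 in L-GMP and 995 in culture (-0.85, adjusted p = 0.0107, and 1.23 in culture over L-GMP, adjusted p = 0.00118). Chchd1, of the small subunit, went from 2384 to 1794 to 2356 (-0.41, adjusted p = 0.0239, and 0.38, adjusted p = 0.0301). Ptcd3 rose in culture over GMP (380.5 to 543, 0.50, adjusted p = 0.026), and Dap3, of the small subunit and also known as a death-associated protein, was at 1471 in GMP and 1409 in L-GMP (adjusted p = 0.657).

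Assembly factors build the ribosome but do not stay in it. Of 16 tested, 4 were lower in L-GMP and 0 higher (0 also at an unadjusted p under 0.05), and 4 were higher in the cultured cells than in L-GMP. The shares over all genes were 12.8% lower in L-GMP than in GMP and 16.6% higher in culture than in L-GMP. Fastkd2, an RNA-binding protein needed for the large-subunit RNA, fell from 1111 to 447 (-1.32 ± 0.13, adjusted p = 4.39e-05) and was at 1052 in culture, 1.24 above L-GMP (adjusted p = 6.29e-05). This fall was larger than that of any tested member. Dhx30, an RNA helicase, averaged 1121, 750.1 and 1506 in the 3 groups (-0.57, adjusted p = 0.00897, and 1.00 in culture against L-GMP, adjusted p = 0.000295). Mrm3, which methylates the large-subunit RNA, went from 358 to 234 (-0.60, adjusted p = 0.00795).

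The factors of mitochondrial translation proper were less well covered, with 7 of 13 genes tested. In L-GMP 1 was lower and 0 higher, with 1 higher at an unadjusted p under 0.05 in the limma fit, beside 12.8% lower over all genes. In culture 3 were higher and 1 lower than in L-GMP, the last being Oxa1l, which inserts mitochondrial products into the inner membrane (1875 to 1407, -0.41, adjusted p = 0.0176). The one lower in L-GMP was Gfm1, the elongation factor that moves the ribosome along the messenger, at 1681, 1214 and 1982 in the order GMP, L-GMP and cultured cells (-0.48, adjusted p = 0.0297, and 0.70 in culture over L-GMP, adjusted p = 0.00377). Mtif2, an initiation factor, rose in culture from 155 in GMP to 243 (0.65, adjusted p = 0.0137), and Tufm, the elongation factor that brings in tRNA, was at 739, 609 and 697 with no call (adjusted p of 0.0902 and 0.625 against GMP). Among 13 factors of mitochondrial DNA and RNA 4 were lower and 0 higher in L-GMP (0 higher also at an unadjusted p under 0.05), 2 were lower and 2 higher in culture against GMP, and 1 was lower and 4 higher in culture against L-GMP. Those lower in L-GMP included Slirp, which stabilises mitochondrial messengers, at 2251, 1564 and 2583 (-0.53, adjusted p = 0.00965), and Elac2, which trims tRNA ends, at 196, 138 and 269.9 (-0.51, adjusted p = 0.0362). In culture Polg, the catalytic subunit of the mitochondrial DNA polymerase, rose from 189 in GMP to 331 (0.81, adjusted p = 0.00449), and its partner Polg2 fell from 1146 to 792 (-0.54, adjusted p = 0.0114). Tfam, which packs mitochondrial DNA and starts its transcription, was at 626, 505 and 615 and was not called (adjusted p = 0.113 in L-GMP). Of 7 mitochondrial aminoacyl-tRNA synthetases 1 was lower in both leukemic groups, Fars2, at 422, 219 and 209 (-0.96, adjusted p = 0.000955, and -1.01, adjusted p = 0.000773). Shares over all tested genes were 12.8% lower and 13.1% higher for L-GMP against GMP. For culture they were 10.7% and 13.4% against GMP and 14.1% and 16.6% against L-GMP.

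Cytosolic ribosomal proteins, which make up the ribosome outside mitochondria, were set beside the members. Of 42 genes 2 were lower and 8 higher in L-GMP than in GMP (median 0.042), 13 were higher and 0 lower in culture (median 0.056, with 1 lower at an unadjusted p under 0.05 in the limma fit), and 4 were higher and 1 lower in culture against L-GMP (median 0.018). Nuclear-encoded respiratory chain genes, partners of the proteins that the mitochondrial ribosome makes, gave 16 lower and 4 higher of 77 in L-GMP (median -0.072), 8 lower and 15 higher in culture against GMP (median 0.052) and 8 lower and 27 higher in culture against L-GMP (median 0.13). Among all tested genes 12.8% were lower and 13.1% higher for L-GMP against GMP. For culture these shares were 10.7% and 13.4% against GMP and 14.1% and 16.6% against L-GMP. The member medians in the same comparisons over 74 genes were -0.14, 0.17 and 0.44. The difference between the lists was not tested.

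Myc, a transcription factor known to raise the genes of ribosome and mitochondrial synthesis, was at 1064, 1232 and 1169.8 in GMP, 587, 572 and 657 in L-GMP and 1079.7, 996 and 1028 in the cultured cells. The L-GMP arrays lay below all others, by -0.93 ± 0.11 from GMP (adjusted p = 0.000143), and the cultured cells were 0.78 above L-GMP (adjusted p = 0.000437). Its relative Mycn averaged 4080.0 in L-GMP and 1346 in the cultured cells against 13.2 in GMP, where all arrays were at the floor, and was at least 61.0-fold and at least 17.1-fold higher. It was 3.56-fold lower in the cultured cells than in L-GMP (adjusted p = 0.0166). The cultured arrays were at 2681, 630 and 726, so that replicate 1 lay within the L-GMP range. Whether the levels of either bear on the members was not tested.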

How the data were processed

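RNA of sorted cells was measured on 9 one-colour Affymetrix mouse arrays, 3 each of GMP, L-GMP and L-GMP-derived cells. The deposited values are linear intensity signals for 22690 probe sets, made with MAS5 (version 5) per the submitters' processing notes. They include 1917 negative values (0.939%), whose origin in the summary method no source used here gives, and the trimmed mean signal of an array ran from 450.7 to 483. Each signal was raised to at least 62.4 (the 25th percentile) and taken to log2. The 64 control probe sets were left out, and a probe set was tested if 3 or more arrays exceeded 111, the 40th percentile (14578 probe sets).

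Differences were fitted in R 4.3.3 with limma 3.58.1 (lmFit, contrasts.fit, eBayes with an intensity trend) on all 9 arrays, with 6 residual degrees of freedom and Benjamini-Hochberg adjustment over the 14578 probe sets. The number of arrays limits the precision. The probe set of highest mean log2 signal stood for a gene (8965 genes). Centred signals are log2 values minus the mean of the 9 arrays.

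Symbols came from the platform annotation (20393 probe sets with 1 symbol, 691 with several, 1606 with none), and all 74 members matched RefSeq. Another 3 probe sets were left out because they carry several symbols. Of the members, 18 probe sets may bind related transcripts. In simulated data of 14578 probe sets, 2-fold changes were recovered in 81% of cases for L-GMP against GMP and in 80% for each comparison of the cultured cells. Far fewer probe sets were changed in the simulation than were called in the data, and its noise was independent, so these rates need not carry over. Most member differences were smaller than 2-fold, and recovery at their size was not simulated.

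Named members are up to 8 with the largest called rise and fall per comparison, 10 kept by name (Mrpl3, Mrpl12, Mrpl28, Mrpl40, Mrps7, Mrps12, Mrps18a, Mrps18b, Mrps18c, Mrps30), and those below the filter. For each pathway list up to 3 called genes are named, with Myc, Mycn, Tfam and Tufm. Mrpl36, Mrps34's GMP values, Mrps36, Dap3, second probe sets and the printed promoters were chosen after values were seen. The rule for the members used no measured value, but the members, lists and alternatives were chosen with earlier results of these data known. Alternatives were quantile normalization, other floors and filters, no trend, array weights, the mean over probe sets, 2-group fits, a replicate block and leaving out each array.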

Additional observations from a re-analysis of the deposited data

How the results depend on the processing

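The median member differences kept their signs and moved by less than the pooled SD between arrays of 0.117 under each alternative run. Leaving out 1 array at a time, they ranged from -0.204 to -0.131 for L-GMP against GMP, from 0.137 to 0.294 for cultured cells against GMP and from 0.381 to 0.544 for cultured cells against L-GMP. No named member had a called difference of the opposite sign under any of them. Counts moved more. Over all probe sets the calls ranged with 1 array left out from 2475 to 4904, from 2306 to 4456 and from 3341 to 5478 in the same order. The lower and higher members were 17 to 40 and 2 to 4, then 2 to 5 and 18 to 51, then 0 to 2 and 38 to 74. The highest counts of the main direction came without L-GMP-derived replicate 1. With the mean over the probe sets of a gene, 2372, 2271 and 2773 genes were called, and 0 members were lower in the cultured cells against GMP or against L-GMP (3 and 0 at an unadjusted p under 0.05, limma). With array weights 6912 probe sets were called in cultured cells against GMP, with 10 members lower and 65 higher, 5 members were higher in L-GMP, and 3 were lower in cultured cells against L-GMP. Without the filter 2 members were lower in cultured cells against GMP and 0 against L-GMP (4 at an unadjusted p under 0.05), and with quantile normalization 2 were lower in the last. The cause of these shifts was not tested.

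Whether replicate numbers pair the arrays is not settled. Of 7 pairs with the same number, the correlations of deviations from group means ran from -0.309 to 0.17, and 1 was over 0.1. Deviations from a mean of 3 arrays depend on each other within a group, so these correlations cannot exclude pairing. A fit with the replicate block called 1916 probe sets in L-GMP against GMP and 1750 in cultured cells against GMP. It called 9 lower and 1 higher members in the first, 1 lower and 10 higher in the second, and 0 lower (3 at an unadjusted p under 0.05, limma) and 36 higher in cultured cells against L-GMP. The GMP array without a number formed its own block.

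The limits are 3 arrays a group with no stated separate animals, members near the floor whose differences are understated, and groups that differ in other cell types' markers and in the beta-actin 3′ ratios.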
